A study of Mus musculus with 4 samples.

Results

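The BCL2 family decides whether a cell keeps its mitochondria intact or dies by the intrinsic route of apoptosis. Pro-survival members such as BCL2, BCL-XL and MCL1 hold back the effectors BAX and BAK, which otherwise open pores in the outer mitochondrial membrane. BH3-only members such as BIM and PUMA sense stress or loss of cytokine signals and bind the pro-survival proteins through a short helix, the BH3 domain. In mouse T cells BIM is best known for the death of activated cells when a response contracts, and memory cells depend on BCL2 and MCL1.

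The members were 10 genes, 3 pro-survival (Bcl2, Bcl2l1, Mcl1) and 7 pro-death (the effectors Bax and Bak1, and the BH3-only genes Bid, Bad, Bcl2l11, Bbc3 and Pmaip1). All their probes were taken by gene symbol from the platform annotation, 28 of the 45281 probes in the deposited table. The annotation gave probes for 9 of the 10 genes, among 19057 gene symbols in all, and Bax was not analysed here because no probe carried its symbol. A probe was kept when its deposited intensity exceeded a floor of 16 on at least 1 array. That left 14 of the 28 member probes, from 8 genes, and of those 12 exceeded the floor on all 4 arrays.

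The samples were T cells sorted as CD4+CD62L-CD44+, a phenotype of effector memory, from spleen and lymph nodes of mice and measured on Illumina bead arrays, 2 from dKO and 2 from WT mice. The dKO mice were C57BL/6 Lck-Cre MEKK2 KO MEKK3F/- animals, so MEKK2 was missing from every cell. Of the 2 MEKK3 alleles 1 was null throughout the animal and the other was floxed and cut by Cre under the T cell promoter Lck. The WT mice were C57BL/6, with no Cre or floxed allele named, and no age was given for either group. MEKK2 and MEKK3 are kinases that start MAP kinase cascades, and the study's title asks how they bear on helper T cell differentiation under TGF-beta. The labels leave unsaid whether each array had its own animals, so the p-values measure a spread between arrays that may be partly technical.

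Several facts of the arrays touch every difference below. Most T cell genes were well above the floor, with 5 of 6 T cell markers kept. Their summed intensity was 11600 to 13300 in dKO and 9970 to 15800 in WT. Cd4 read 151 and 84.4 in dKO against 105 and 141 in WT, and Cd5 stayed below the floor. Cd44 read 813 to 1110 at its brightest probe. Over all 8285 kept genes 13.3% were higher and 14.0% lower in dKO without overlap, the shares beside which these marker counts are read. Of 6 NK and CD8 T cell markers 4 were kept, and 3 of them were lower in dKO without overlap. Klrb1c and Klre1 were kept only through the WT arrays, so they could only come out lower. The sums were 834 and 780 in dKO and 1300 and 994 in WT. Of these Cd8b1, whose groups overlapped, made up 691 and 512 in dKO and 736 and 602 in WT. Cd8a and Ncr1 stayed below the floor throughout. Of 5 erythroid markers on the array 4 were kept, 3 of them higher in dKO without overlap, with sums of 811 and 4210 in dKO against 63.0 and 136 in WT, and Alas2 below the floor. Slc4a1 was kept through dKO 2 alone, so it could not come out lower. Of 7 myeloid markers 6 were kept, with 4 higher in dKO without overlap, 0 lower and a median log2 difference of 1.15. Their sums were 397 and 854 in dKO against 461 and 178 in WT, of which Lyz2 made up 309 on WT 1, and Itgam stayed below the floor. C1qa was likewise kept through dKO 2 alone and could not come out lower. Of 3 B cell markers only Cd79b was kept (27.9 and 263 against 90.5 and 91.0). The part of these other cells in the results was not tested. Xist was near 0 on both dKO arrays and at 327 and 536 on the WT arrays at its brightest probe, and the Y-linked Eif2s3y was at 235 and 377 in dKO and below the floor in WT, so sex and genotype cannot be told apart. The targeted Map3k3 read 204 and 246 in dKO and 311 and 387 in WT, and both Map3k2 probes stayed below the floor.

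In WT cells all 3 pro-survival genes had a probe above the floor on both arrays, and so did 5 of the 7 pro-death genes. Mcl1, with its single probe, read 1250 on WT 1 and 1780 on WT 2. The brightest Bcl2 probe read 211 and 116, and the only Bcl2l1 probe above the floor read 27.8 and 32.4. Among the pro-death genes the brightest probes read 176 and 182 for Bcl2l11, 98.9 and 122 for Bad, 98.7 and 109 for Bid, 76.4 and 140 for Bbc3, and 29.2 and 70.6 for Pmaip1. The effector gene Bak1 was not above the floor on any array, with its highest value at 15.3, and so only a bound on its level is known. Probes differ in how brightly they report a transcript, so these intensities do not rank the genes and give no ratio of pro-survival to pro-death RNA within WT cells. In bulk RNA, fewer cells that express a gene and less RNA per cell cannot be told apart.

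**Figure D1:**
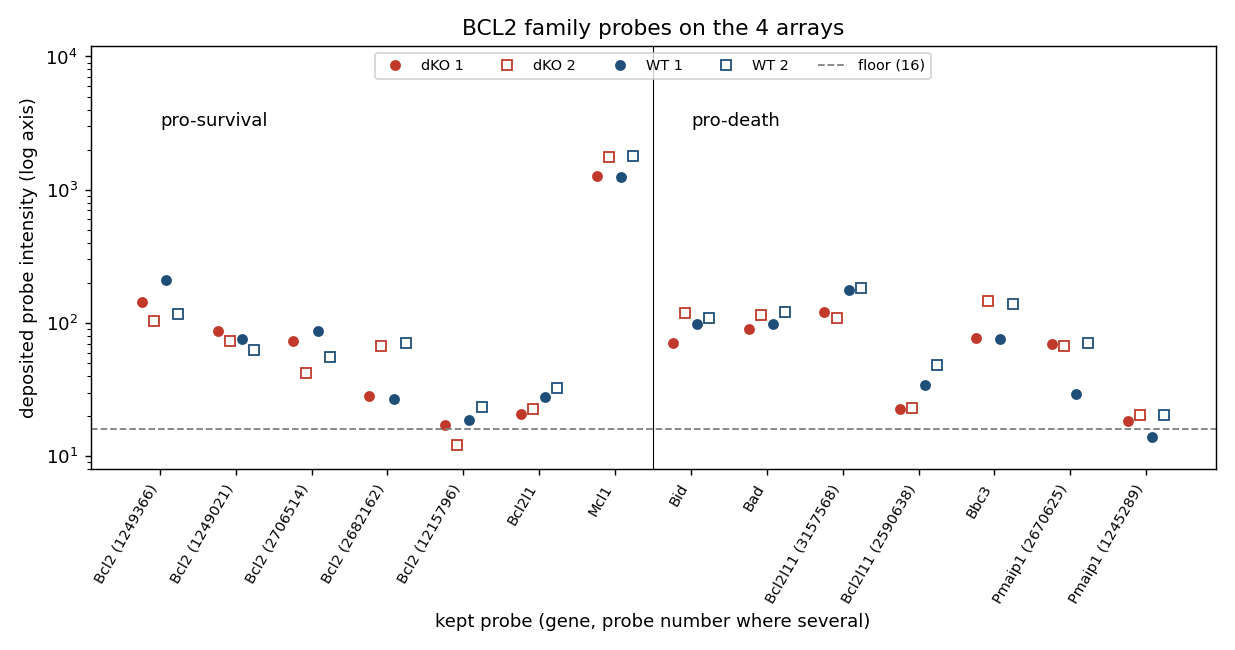
Deposited intensity (log axis) of the 14 kept BCL2 family probes on the dKO arrays (red) and WT arrays (blue), with circles for replicate number 1, squares for number 2 and a dashed line at the floor of 16. Both Bcl2l11 probes are lower on both dKO arrays than on either WT array, while the 4 Mcl1 values pair by replicate number, not by genotype.

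The comparison of dKO with WT asks whether loss of both kinases went with a shift of the survival genes. No member probe passed, but Bcl2l11, which encodes BIM, was lower in dKO on both kept probes and within both replicate numbers. Bcl2l1, which encodes BCL-XL, was also lower within both numbers, from values near the floor. Mcl1 was level, Bcl2 probes pointed in different directions, and Pmaip1, which encodes NOXA, was higher in number 1 only. Limma, a linear model fitted to all probes at once, called 0 of the 14 kept member probes and, over all 14673 kept probes, 0 (0%) higher and 0 (0%) lower, with an adjusted p of 0.9999 for every member probe. With the replicate number as a block, which is given because the authors' values of the dKO and WT arrays of a number share 1 distribution, limma again called 0 member probes, against 0.157% of all kept probes higher and 0.075% lower.

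Without the block 1 member probe, of Bcl2l11, had an unadjusted p under 0.05, lower in dKO, where 1.72% of all kept probes were. With the block 3 did, the 2 of Bcl2l11 and that of Bcl2l1, all lower, where 6.09% of all kept probes were. The groups did not overlap for 5 member probes that were lower in dKO and 1 that was higher, where 14.2% and 11.9% of all kept probes did so. The 5 lower probes were both of Bcl2l11 and 1 each of Bcl2, Bcl2l1 and Bad. The median log2 difference of the 14 was −0.15, beside 0.00 over all kept probes. These counts describe the probes that passed the floor, and of those a Bcl2 probe and a Pmaip1 probe did so on only some arrays.

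The probe of Bcl2l11 that was brightest had intensities of 121 (dKO 1), 109 (dKO 2), 176 (WT 1) and 182 (WT 2). Both dKO values lay below both WT values. After quantile normalization the dKO mean was 6.85 ± 0.33 and the WT mean 7.49 ± 0.21 on the log2 scale (SD, n = 2 each). They differed by −0.64, with a 95% interval from −1.40 to 0.12 in limma. Within replicate number 1 the difference was −0.56 and within number 2 it was −0.72. The unadjusted p was 0.0822, and with the replicate block 0.0112 (adjusted p = 0.301 in limma).

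The second kept Bcl2l11 probe, annotated to a different transcript record of the gene, read 22.5 and 22.9 on the dKO arrays and 34.5 and 48.8 on the WT arrays. It too separated the groups, at lower intensity. The dKO mean was 4.51 ± 0.11 and the WT mean 5.36 ± 0.19 (log2, SD, n = 2 each). They differed by −0.85, with a 95% interval from −1.51 to −0.19, or 0.555 times the WT level. Within the numbers it differed by −0.64 and −1.06. The unadjusted p of 0.0216 was the lowest of the members, and with the block it was 0.00942 (adjusted p = 0.289 in limma). Both dKO values were close to the floor, and the result depended on where the floor was set. In limma without the block, the difference was −0.36 with a floor of 32 (unadjusted p = 0.0556). With a floor of 8 the unadjusted p was 0.0722 in limma. The other 2 Bcl2l11 probes stayed below the floor, with a highest value of 13.1.

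FOXO transcription factors, which act when survival cytokine signals are lost, are known to switch on Bcl2l11 and Bbc3. The upstream sequences of these genes are shown because both carry the core letters such factors read. The 250 bases before each annotated start (RefSeq, GRCm38.p6) were searched on both strands for GTAAACA, and matches are in capitals. Bcl2l11 has 2 annotated starts, on the plus strand at chr2:128125788-128126037 and chr2:128127325-128127574, and the Bbc3 window shown, of 3 in all, is on the plus strand at chr7:16310011-16310260.
Bcl2l11 window 1: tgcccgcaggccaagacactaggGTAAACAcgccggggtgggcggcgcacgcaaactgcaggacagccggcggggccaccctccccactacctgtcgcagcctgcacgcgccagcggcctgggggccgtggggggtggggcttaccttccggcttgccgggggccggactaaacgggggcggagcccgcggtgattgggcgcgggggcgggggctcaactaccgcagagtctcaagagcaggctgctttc
Bcl2l11 window 2: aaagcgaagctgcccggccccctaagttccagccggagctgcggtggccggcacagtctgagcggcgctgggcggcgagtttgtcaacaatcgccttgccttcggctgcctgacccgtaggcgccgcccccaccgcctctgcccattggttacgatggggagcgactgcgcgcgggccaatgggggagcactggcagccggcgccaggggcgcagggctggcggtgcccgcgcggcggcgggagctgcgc
Bbc3 window 2: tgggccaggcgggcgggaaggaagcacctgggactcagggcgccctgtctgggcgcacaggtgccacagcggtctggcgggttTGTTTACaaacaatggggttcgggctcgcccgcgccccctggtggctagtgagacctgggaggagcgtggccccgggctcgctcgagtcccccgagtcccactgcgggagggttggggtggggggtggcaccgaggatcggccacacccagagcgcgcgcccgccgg

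The forkhead core was present in 2 of the 15 windows of 9 member genes, these 2, and in 3.17% of all 32851 windows of the same length. Pmaip1 was left out of the search. GC boxes (GGGCGG) were in 10 of the 15 windows and in 32.7% of all windows, and an E-box (CACGTG) was in 2 and in 6.02%. No member window held the AP-1 letters TGANTCA, the cyclic AMP element TGACGTCA, the STAT5 letters TTCNNNGAA or the core TGCAAT of CHOP and C/EBP sites, which were in 6.75%, 1.55%, 7.02% and 7.32% of all windows. A match describes the letters of a window and shows no binding.

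Bbc3, which encodes PUMA, had intensities of 77.6 (dKO 1), 147 (dKO 2), 76.4 (WT 1) and 140 (WT 2). Its values followed the replicate number, with 1 array of each group low and 1 high. The log2 difference was 0.05 (95% interval −0.94 to 1.03 in limma), with 0.03 and 0.07 within the numbers. Of its 3 probes the other 2 stayed below the floor, with a highest value of 9.57.

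Pmaip1 encodes NOXA, a BH3-only protein that binds MCL1 above all. Its brighter probe had intensities of 69.5 (dKO 1), 67.3 (dKO 2), 29.2 (WT 1) and 70.6 (WT 2). The arrays dKO 1, dKO 2 and WT 2 lay close together and WT 1 stood apart. The log2 difference was 0.61 (95% interval −0.62 to 1.85 in limma), made of 1.29 in number 1 and −0.07 in number 2. Without WT 1 it was 0.10. A second kept probe lay at the floor, at 18.4 and 20.4 in dKO and 14.0 and 20.4 in WT. After normalization dKO lay at 4.28 on both arrays and WT 2 at 4.27, so nothing is read from the lack of overlap.

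Bid, which caspases cleave to link death receptors to mitochondria, read 70.5 and 118 in dKO against 98.7 and 109 in WT at its kept probe. The groups overlapped, with dKO 1 lowest and dKO 2 highest. The log2 difference was −0.19 (95% interval −0.99 to 0.61 in limma) and turned sign between the numbers, −0.49 and 0.11. Bad, whose protein is held inactive by growth factor signalling, read 89.6 and 115 in dKO against 98.9 and 122 in WT. After normalization both dKO values lay below both WT values, by a log2 difference of −0.12 with an interval from −0.78 to 0.55.

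**Figure D2:**
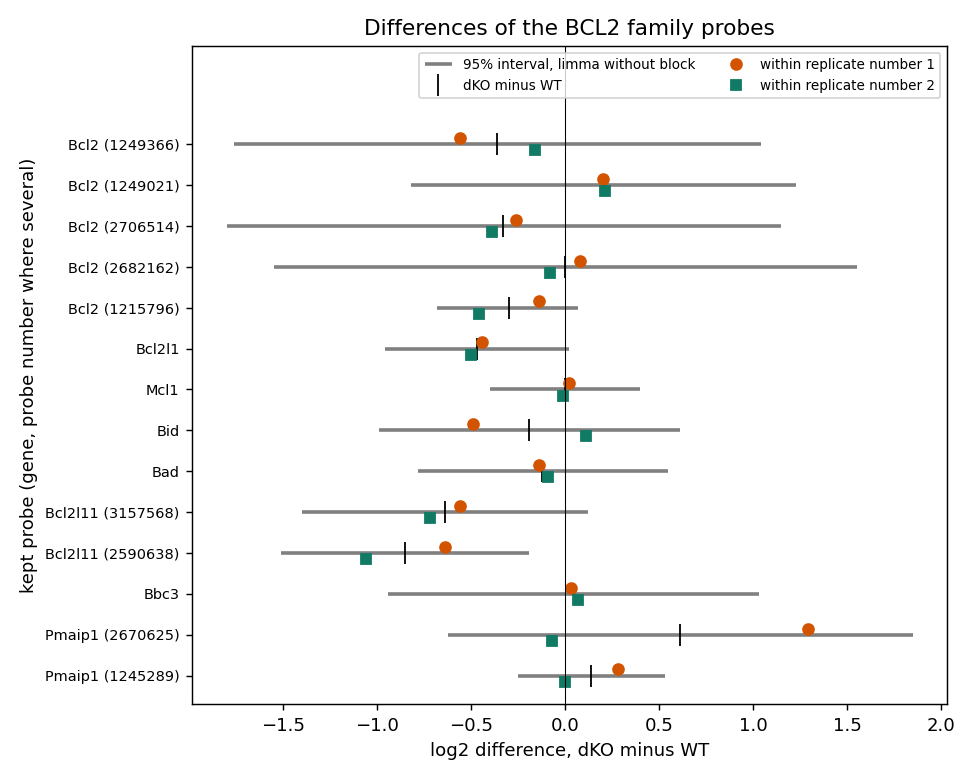
Log2 difference, dKO minus WT, of the 14 kept member probes: the tick is the mean difference, the grey bar its 95% interval in limma without the block, and the circle and square the differences within replicate numbers 1 and 2. The interval excludes 0 for 1 Bcl2l11 probe alone (−1.51 to −0.19), and Pmaip1 has its numbers far apart (1.29 and −0.07).

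Among the pro-survival genes Mcl1, which codes for a short-lived protein that lymphocytes need throughout life, had intensities of 1260 (dKO 1), 1770 (dKO 2), 1250 (WT 1) and 1780 (WT 2). The difference between numbers in the deposited values went with their separate distributions, and after quantile normalization over the 4 arrays all values lay between 10.53 and 10.56. The log2 difference was 0.00, and the 95% interval in limma ran from −0.40 to 0.40, or from 0.758 to 1.32 times the WT level.

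Bcl2l1 had intensities of 20.8 (dKO 1), 22.7 (dKO 2), 27.8 (WT 1) and 32.4 (WT 2) at the only 1 of its 4 probes above the floor. Both dKO values were below both WT values, but all 4 were close to the floor. The log2 difference was −0.47 (dKO 4.44 ± 0.03 and WT 4.91 ± 0.01, SD, n = 2 each), with a 95% interval from −0.96 to 0.02 and differences of −0.44 and −0.50 within the numbers. The unadjusted p was 0.0575, and 0.0495 with the replicate block (adjusted p = 0.424 in limma). BCL-XL is also the chief survival protein of red cell precursors.

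Bcl2 had 9 probes, of which 5 were kept. The brightest had intensities of 144 (dKO 1), 104 (dKO 2), 211 (WT 1) and 116 (WT 2). The next read 87.8 and 73.6 in dKO against 76.4 and 63.2 in WT, and the dimmest of these 3 read 73.3 and 42.2 against 87.6 and 55.5. The brightest and the dimmest were lower in dKO within each number and the one between was higher, while in all 3 the groups overlapped. The log2 differences were −0.36, 0.21 and −0.33, with 95% intervals in limma from −1.76 to 1.04, −0.82 to 1.23 and −1.80 to 1.15.

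Another Bcl2 probe, the only kept one annotated to the second transcript record of the gene, read 28.5 and 67.6 in dKO against 27.0 and 71.4 in WT. It showed no difference between the genotypes (0.00, 95% interval −1.55 to 1.55) and a large one between the replicate numbers. The last kept probe lay at the floor, at 17.2 and 12.1 in dKO and 18.9 and 23.5 in WT, with dKO 2 below it. Its difference of −0.30 was thus limited by the floor.

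The Bcl2 probes also disagreed on how the arrays of the 2 replicate numbers differed. After normalization over the 4 arrays the 3 brightest probes were higher in number 1, with number 2 minus number 1 at −1.20, −0.56 and −0.94 in WT and −0.80, −0.55 and −1.06 in dKO. The probe of the second transcript record was higher in number 2, by 1.16 in WT and 1.00 in dKO. Both genotypes gave the same pattern for each of these probes. Over the kept member probes the difference between numbers was larger than that between genotypes for 4 of 5 Bcl2 probes and 2 of the 9 others, and so it was for 63.0% of all kept probes. The labels do not say what the number marks, so these differences have no name beyond the number.

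**Figure D3:**
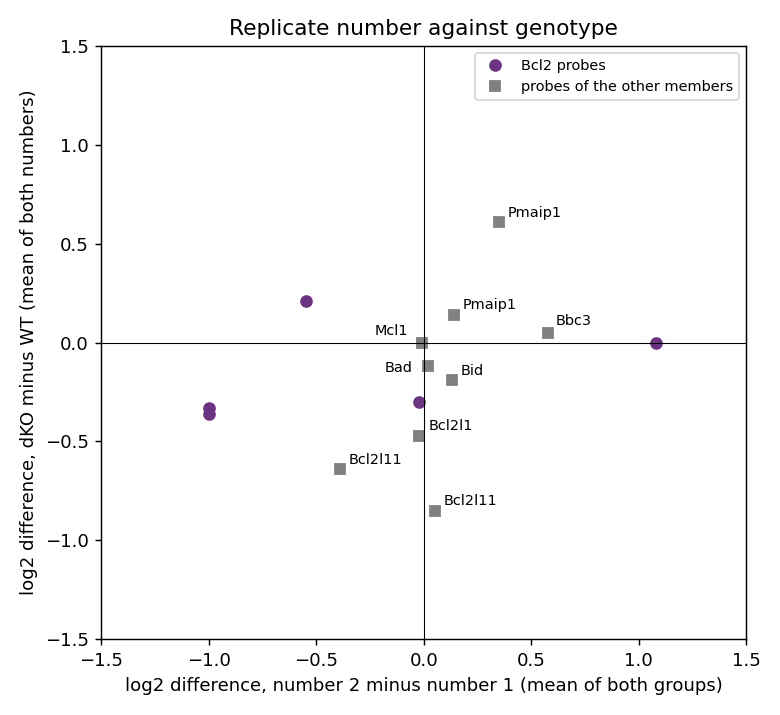
Log2 difference between replicate numbers (number 2 minus number 1, mean of both groups, horizontal axis) against log2 difference between genotypes (dKO minus WT, vertical axis) for the 14 kept member probes, with Bcl2 as circles. The Bcl2 probes spread along the horizontal axis to both sides, and the Bcl2l11 probes lie lowest on the vertical axis, at −0.64 and −0.85.

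The balance of the family was described as the mean log2 value of the 3 pro-survival genes minus that of the 5 pro-death genes with a kept probe, taking the brightest probe of each gene. Since probes differ in brightness, only its difference between arrays has a meaning. Its values were 0.91 (dKO 1), 0.57 (dKO 2), 1.27 (WT 1) and 0.65 (WT 2). Arrays of the groups overlapped, and the difference of −0.22 was smaller than the spread between replicates (pooled SD 0.35). That SD includes the shift between replicate numbers, since number 2 was lower in both groups. Within the numbers the difference was −0.35 and −0.08. The pro-survival part differed by −0.28 and the pro-death part by −0.06. The value turned on single genes and arrays, at −0.36 without Bcl2l11, −0.05 without Pmaip1 and 0.09 without WT 1. It was −0.08 with the mean of all kept probes of each gene and −0.06 with a floor of 32.

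The rest of the BCL2 family held 1 larger difference. Bik, a BH3-only gene whose protein sits at the endoplasmic reticulum, had intensities of 91.4 (dKO 1), 139 (dKO 2), 43.8 (WT 1) and 54.2 (WT 2). Both dKO values exceeded both WT values, by a log2 difference of 1.21, with 1.09 and 1.32 within the numbers. It did not pass in limma (unadjusted p = 0.0127, adjusted p = 0.9999, and 0.175 with the replicate block).

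Of 16 further family genes listed, 15 were on the array and 8 were kept, of which 3 were higher in dKO without overlap and 1 was lower. Over all 8285 kept genes 13.3% were higher and 14.0% lower in this way, the shares against which the list counts here and below are read. The median log2 difference of the 8 was 0.17, beside 0.01 over all kept genes. Limma called 0 of the 8, with or without the block. The A1 genes, pro-survival members induced by NF-kB, were 3 of the 8. Bcl2a1b read 597 and 1400 in dKO against 534 and 1150 in WT, a log2 difference of 0.21, and Bcl2a1c differed by 0.53 and Bcl2a1d by 0.16. A dimmer kept Bcl2a1d probe differed by 0.52. The A1 genes are near-identical copies whose probes may share signal. Bnip3l, which removes mitochondria from maturing red cells, was at 899 and 1030 against 737 and 999, a difference of 0.17. Bcl2l2, the pro-survival BCL-W gene, differed by 0.06, Bcl2l13 by −0.13 and Bcl2l12 by −0.33. The pro-death genes Bmf, Hrk and Bok stayed below the floor.

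Downstream of BAX and BAK, cytochrome c leaves the mitochondria and joins APAF1 to activate caspase 9. Of 12 such genes on the array 10 were kept, 2 of them higher in dKO without overlap and 0 lower (13.3% and 14.0% over all kept genes), with a median of 0.17. Limma called 0 of them in either fit. Apaf1 read 344 and 457 in dKO against 268 and 325 in WT, a log2 difference of 0.42 (0.38 and 0.47 within the numbers), while its dimmest kept probe differed by 0.01. Cycs, the cytochrome c gene, differed by 0.35 and Aifm1 by 0.44, the latter with a dimmer probe that did not follow (0.06). The dimmer kept Cycs probe exceeded the floor on WT 1 alone (18.6), so nothing is read from its difference of −0.15. Vdac2, a mitochondrial channel that binds BAK, differed by 0.23.

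Upstream, the receptors of survival cytokines and the transcription factors that set the family's levels were listed as 14 genes, of which 11 were on the array and 8 were kept. Of the 8, 4 were lower in dKO without overlap and 0 higher (14.0% and 13.3% over all kept genes). Of the 4, Myc and Foxo3 were kept only through the WT arrays, so they could only come out lower. The median of the 8 was −0.20, and limma called 0 in either fit. Ddit3, which encodes the stress factor CHOP, an inducer of Bcl2l11, read 120 and 116 in dKO against 184 and 206 in WT, a log2 difference of −0.72, and its second probe differed by −0.67. Its adjusted p was 0.9999 in limma, and 0.262 with the replicate block. Myc read 21.3 and 22.0 in WT and was under the floor in both dKO samples, at least 1.36-fold lower. Foxo3 was likewise below the floor in dKO and barely above it in WT (18.7 and 17.1), at least 1.13-fold lower, and its other probes stayed below the floor. Foxo1, further above the floor, read 307 and 242 in dKO against 280 and 319 in WT. It differed by 0.14 and −0.38 within the numbers. Its second probe differed by 0.26, made of 1.46 and −0.94. Il7r, the receptor chain for interleukin 7, read 1320 and 1080 in dKO against 1270 and 880 in WT, a log2 difference of 0.17. Il2rb, the receptor chain for interleukins 2 and 15, differed by −0.74 and −0.69 within the numbers, although its levels overlapped because number 2 was higher in both groups (18.6 and 61.9 in dKO, 30.4 and 101 in WT).

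Targets of p53, the factor that induces Bbc3 and Pmaip1 after DNA damage, gave no shared direction, with 10 of 12 kept, 2 higher and 1 lower without overlap (13.3% and 14.0% over all kept genes) and a median of −0.08. Limma called 0 of them in either fit. Sesn1 was lower at each of its 3 kept probes, at −0.62, −0.58 and −0.80, and read 531 and 557 in dKO against 845 and 830 in WT at the brightest. Trp53inp1 differed by −0.33, Ccng1 by 0.33 and Zmat3 by 0.41. Genes that degrade or sequester MCL1, BIM and BAD were 12 kept of 13 on the array, 1 higher and 2 lower without overlap (13.3% and 14.0% over all kept genes), with a median of 0.03, and limma called 0 in either fit. Btrc, a ubiquitin ligase subunit that targets BIM, differed by −0.63. Dynll2, a dynein light chain that anchors BMF, differed by −0.65, made of −0.14 and −1.16. It read 8.78 on dKO 2, so the −1.16 was limited by the floor, and its other probe stayed below the floor. Huwe1, a ligase for MCL1, differed by 0.44, while its second kept probe differed by −0.09. Gsk3b differed by 0.66 at 1 probe, made of 1.26 and 0.05 within the numbers, and by −0.20 at the other.

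**Figure D4:**
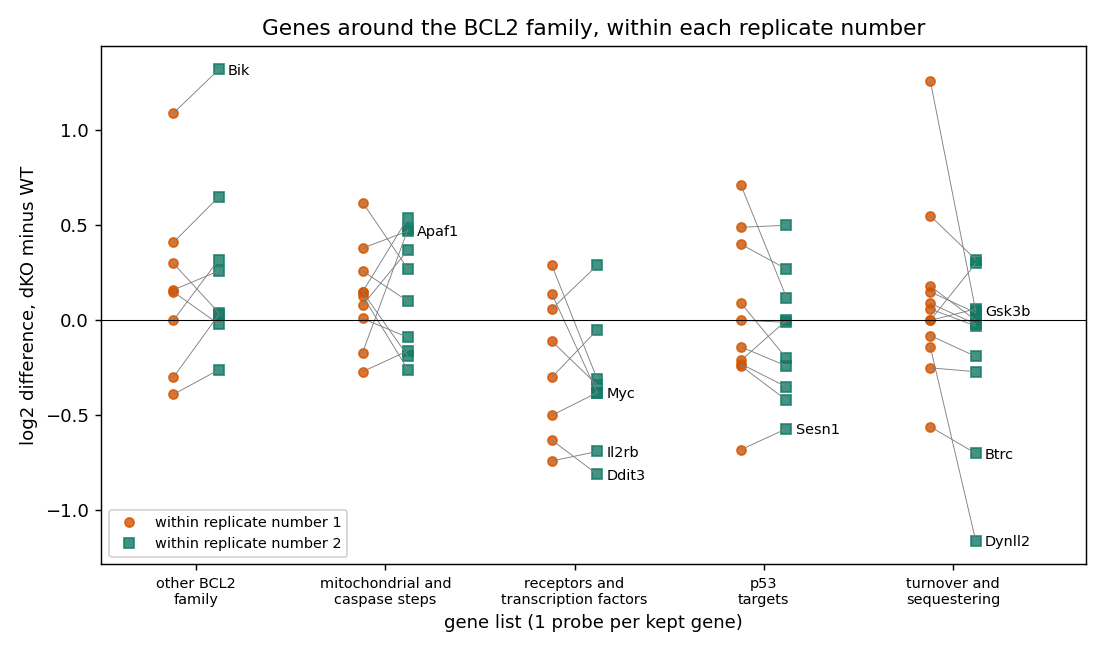
Log2 difference, dKO minus WT, within replicate number 1 (circles) and number 2 (squares) for the kept genes of 5 lists around the BCL2 family, with a line joining the 2 values of a gene. Bik stands highest in both numbers among the further family genes (1.09 and 1.32), and Ddit3 and Il2rb stand lowest among the receptors and transcription factors.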

How the data were processed

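The authors deposited probe intensities of 4 Illumina bead arrays (2 dKO, 2 WT) on a linear scale, background-subtracted as values below 0 show. Their software was not given in the sources used here. Sorted intensities of both arrays of a replicate number agreed within 0.0846 and 0.0793. Mean intensity was 86.9 (number 1) and 119 (number 2), and 70.8% to 71.8% of probes lay at or below the floor. A second, non-normalized table was not used, since its 8 value columns carry names that match no label.

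Values under 16 were set to 16, and log2 values of all 4 arrays were quantile normalized. The 14673 of 45281 probes above the floor on any array were fitted with limma 3.58.1 in R 4.3.3 (eBayes with trend, two-sided, Benjamini-Hochberg over all of them, threshold 0.05), without a block (2 residual degrees of freedom) and with the replicate number as a block (1). An exact permutation of 2 against 2 arrays cannot give a p below 0.333 and was not run. Platform annotation named 1 gene for 34885 probes, several for 18 and none for 10378, and 34807 matched RefSeq (GRCm38.p6) by Entrez ID. Other lists used the kept probe of highest mean per gene. "At least" marks a fold against the floor. All members are named, with other BCL2 family genes and markers, and up to 4 genes of each further list by unadjusted p. Xist, Eif2s3y, Foxo1 and Il7r fall outside that rule. Members, lists and searched motifs were chosen with earlier results of these data known. Both fits were also run on simulated data, with independent normal noise and no floor. A limit on false calls was set there for the fit without the block only.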

Additional observations from a re-analysis of the deposited data

How the results depend on the processing

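Of 17 alternative settings 1 was chosen after seeing the data, no filter without trend. The planned fit with no filter and a mean-variance trend could not be fitted, since 30608 of 45281 probes are tied at the floor. Limma called 0 member probes in either direction under every setting run. Over all kept probes it called 23 higher and 11 lower with the replicate block, 36 and 34 on the authors' values with the block, 3 and 2 with log2(value + 16), 1 and 1 with no filter and no trend, and 0 to 0 with any array left out. Deviations from the group means correlated at 0.519 between arrays of a number, and the labels name no pairing. The block changed no call of a member. With an array left out, when the lone array of its group is assumed to vary like the others, the balance ran from −0.52 to 0.09. It was −0.08 with the mean of all kept probes of each member and −0.06 with a floor of 32, moves within the spread between replicates (pooled SD 0.35). That spread includes the shift between replicate numbers.

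Of 200 single-probe differences under these settings 14 had another sign and 0 were newly called. Both Bcl2l11 probes stayed lower throughout, from −0.88 to −0.40 and −0.99 to −0.36, with a lowest adjusted p of 0.225 by limma. With an array left out, the Bcl2 probes ran from −0.96 to 0.24 (ILMN_1249366), −0.87 to 0.20 (ILMN_2706514), −0.07 to 0.49 (ILMN_1249021) and −0.58 to 0.57 (ILMN_2682162). Bbc3 ran from −0.26 to 0.35, Bid from −0.40 to 0.03 and Mcl1 from −0.01 to 0.01. ILMN_2682162 was also at −0.04 with a floor of 32 and 0.00 with log2(value + 16). The cause was not tested. Bcl2l1 was at 0.00 with a floor of 32, which is close to its brightest value. Probes near the floor have their differences limited by it.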
